A study of Camellia sinensis with 9 samples.

Results

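Class k transcripts are assembled transcripts that contain a reference transcript, reaching past it at an end while covering it along its length. They were chosen by class code alone, the code with which the transcript comparison marks how an assembled transcript lies against the reference annotation, and 1825 of the 109879 transcripts of the assembly carry it. They lie in 1437 loci, with 924 on the plus strand and 901 on the minus strand. The RNA came from untreated tea plants, Camellia sinensis, an evergreen shrub grown for its young leaves, with 3 flower, 3 root and 3 leaf libraries. Total RNA was extracted with TRIzol and only ribosomal RNA was removed, so the libraries can hold unspliced and non-polyadenylated RNA beside messenger RNA. The labels give no genotype, age or growth conditions and do not say whether the libraries of a tissue came from separate plants. Each p-value below therefore reflects the variation among these 9 libraries alone, and that variation may be technical.

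A reference gene model often begins and ends with the coding sequence, while the messenger RNA made from the gene also carries untranslated regions before the start codon and after the stop codon. Plant genes can in addition use alternative transcription starts and alternative polyadenylation sites, and the resulting messengers can share a coding sequence and differ at the ends. An assembler that works from reads can therefore build a transcript that contains a reference model, and it can also do so when it joins 2 neighbouring genes or reads through an intron. The table gives starts, ends and strands but no exons, no scaffold name and no genome build, so an extension is measured along the genome, with any intron included, and sequences were not printed. No identifier is paired with a gene name or a function, so transcripts are named by identifier. Tissue labels could not be checked against marker genes for the same reason. In bulk tissue, fewer cells that make a transcript and less of it per cell cannot be told apart.

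Levels are FPKM, fragments scaled by transcript length and library, as the authors deposited them. At a length of 1000 nt, 1 FPKM stood for 14.0 to 26.0 fragments, and 3 fragments, the limit that a count of 0 allows, came to 0.116 to 0.215 FPKM. These limits cover counting error only. Across class k transcripts, log2(FPKM + 1) of libraries of one tissue correlated at r = 0.81 to 0.96 and that of libraries of different tissues at r = 0.48 to 0.75, as a description over transcripts that share a library. Leaf 41 and flower 2 stood farthest from the other libraries of their tissue, and the counts and shares that turn on them are also given without both. A class k transcript and the reference transcript inside it share sequence, so the division of reads between them rests on the abundance estimator.

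Class k transcripts were long beside reference transcripts. Their span along the genome ran between 497 and 164686 nt with a median of 6096 nt, against a median of 1990 nt for reference transcripts (class code =, 36951 transcripts) and 2898 nt for the whole assembly. The quartiles were 3725 and 10673 nt. Class j transcripts, which share a splice junction with a reference transcript, were longer still, with a median of 7828.5 nt (quartiles 4742 and 13588 nt). The span of 1263 class k transcripts held 1 whole reference transcript of the same strand and locus, and that of 525 (28.8%) held 2 or more, up to 11. The other 37 held no whole one. Of those with several, 381 held 2 and 144 held 3 or more.

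The ends could be compared without ambiguity in the 1078 class k transcripts whose locus has a single reference transcript. Of these, 398 (36.9%) reached past the reference at both ends, 429 (39.8%) at the 5′ end only and 251 (23.3%) at the 3′ end only. The 5′ end was the one more often extended, in 827 transcripts against 649 at the 3′ end. At the unextended end, most shared the very base with the reference, 238 at the 5′ end and 416 at the 3′ end, and 13 at each end stopped short of it. The 5′ extensions had a median of 1523 nt (quartiles 654 and 3788.5 nt) and the 3′ extensions a median of 815 nt (quartiles 402 and 2919 nt). An extension of 1000 nt or more was found in 530 transcripts at the 5′ end and in 292 at the 3′ end. Extensions of at least 10000 nt numbered 77 at the 5′ end and 31 at the 3′ end. The median ratio of the class k span to the reference span was 2.32, and in 605 transcripts (56.1%) it was at least 2. Because introns are included, these lengths are not lengths of untranslated regions. Among the 1612 reference transcripts shorter than 300 nt, 87.2% had a span that is a multiple of 3, the length of a codon, against 44.1% of all reference transcripts and 32.3% of class k transcripts. The span of these short reference models is thus mostly a whole number of codons. Whether it is a coding length was not tested, since no exons or sequences are given.

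**Figure D1:**
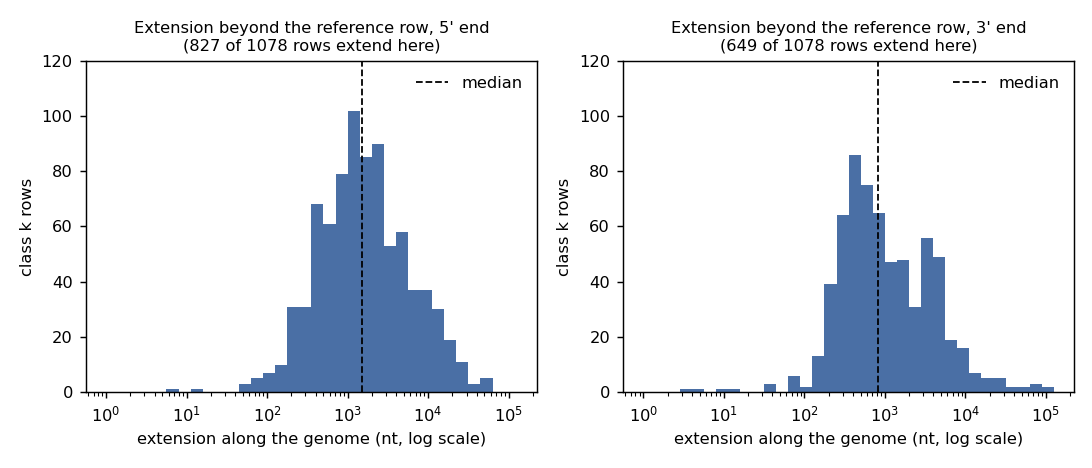
Distribution of the extension of class k transcripts beyond the single reference transcript of their locus, at the 5′ end (827 of 1078 transcripts, left) and at the 3′ end (649, right); the x axis is the extension along the genome in nt on a log scale, the y axis counts transcripts, and the dashed line marks the median. The 5′ extensions centre on 1523 nt and the 3′ extensions on 815 nt, with tails past 10000 nt at both ends.

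The longest transcript, MSTRG.3682.2, spanned 164686 nt on the minus strand (positions 989916 to 1154601) and held 2 reference transcripts at the 5′ side of its span. Its FPKM was 2.11, 2.97e-06 and 0.875 in flower, 4.18, 9.88 and 4.31 in root and 1.18, 1.42 and 2.23 in leaf, so the root libraries were above all others. It fell by 1.89 ± 0.47 (SE) on the log2(FPKM + 1) scale in flower relative to root (limma, adjusted p = 0.00994), while root minus leaf, 1.38 ± 0.47, missed the threshold (limma, adjusted p = 0.0502). MSTRG.11865.2 (plus strand, positions 622044 to 729970) shared the first base of a reference transcript of 204 nt and ran 107723 nt past its 3′ end, the farthest extension. Its level varied within root between 6.85e-16 and 3.7996 FPKM and it passed the test in no comparison. MSTRG.1377.1 (minus strand, positions 1027072 to 1120725), with a 3′ extension of 90151 nt, was present throughout, at 14.1, 17.0 and 13.7 FPKM in flower, 20.7, 18.6 and 23.98 in root and 31.1, 34.1 and 11.4 in leaf.

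Class k transcripts were more abundant than most of the assembly. Their median mean over the 9 libraries was 2.45 FPKM (quartiles 0.664 and 9.07), against 0.842 FPKM for all transcripts, 0.207 for reference transcripts and 1.70 for class j transcripts, which share a splice junction with a reference transcript. In all 9 libraries, 589 class k transcripts (32.3%) had at least 1 FPKM, against 15.1% of all transcripts and 23.8% of class j. In no library was it reached by 253 (13.9%), against 26.7% of all, 52.7% of reference transcripts and 11.9% of class j. A mean of at least 10 FPKM was reached by 426 (23.3%, against 12.2% of all transcripts, 13.9% of reference transcripts and 16.0% of class j). A mean of at least 100 FPKM was reached by 48 (2.63%, against 1.34%, 2.01% and 1.25%). Those 48 held 48.5% of the summed mean FPKM of the class. These are descriptions of levels per length, and the assembler reports transcripts for which it has reads.

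Level differed with the form of the extension. Among the 1078 transcripts with a single reference, those extended at both ends had a median mean of 5.01 FPKM, those extended at the 3′ end only 2.31 and those at the 5′ end only 1.98. The test below was open to transcripts with at least 1 FPKM in at least 3 libraries, which 1301 of the 1825 class k transcripts had (71.3%, against 50.8% of the assembly, 36.3% of reference transcripts and 69.3% of class j). It took in 85.2% of the transcripts extended at both ends, 71.7% of those at the 3′ end only and 67.1% of those at the 5′ end only. Among the tested transcripts that hold 1 reference, 589 of 917 (64.2%) had a higher mean than that reference, and in 141 (15.4%) the reference had a mean under 0.1 FPKM. Among the 361 tested that hold several, 224 (62.0%) had a higher mean than each of them. In 25 of these (6.93%), every contained reference was under 0.1 FPKM. The minimum level was asked of the class k transcript alone and not of the reference, which tilts these shares towards the class k transcript. A class k transcript was the most abundant transcript of its locus in all 9 libraries in 273 cases (14.96%), and in no library in 755.

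The most abundant class k transcript was MSTRG.36292.1 (plus strand, positions 177560 to 179443), which extends its reference transcript by 738 nt at the 5′ end and ends on the same base. It had 2415, 1264 and 2111 FPKM in flower, 3669, 3769 and 2338 in root and 488, 956 and 195 in leaf. All leaf libraries lay below all flower and root libraries, and the difference was 2.82 ± 0.56 for root minus leaf and 2.04 ± 0.56 for flower minus leaf (SE, log2(FPKM + 1) scale; limma, adjusted p = 0.00427 and 0.0195). The contained reference, CSA009209.1, was itself abundant, at 628, 296 and 729 FPKM in flower, 2340.4, 5157 and 3878 in root and 193, 266 and 336 in leaf.

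MSTRG.5717.1 (minus strand, positions 501188 to 558491) was the second most abundant in root. It had 76.4, 171 and 65.1 FPKM in flower, 2343, 2864 and 2161 in root and 178, 276 and 303 in leaf. The tissues did not overlap, and root minus leaf was 3.30 ± 0.40 and flower minus root -4.67 ± 0.40 (SE, log2(FPKM + 1) scale; limma, adjusted p = 0.000317 and 3.17e-05). It reached 382 nt past its reference at the 5′ end and 49807 nt at the 3′ end. MSTRG.7272.1 (minus strand, positions 429467 to 473881) varied within root, with 447, 447 and 353 FPKM in flower, 265, 1106 and 1531 in root and 97.4, 84.7 and 117 in leaf. Its root libraries lay above all leaf libraries but around the flower libraries, and only the differences from leaf passed the test.

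In flower the highest mean belonged to MSTRG.26153.1 (plus strand, positions 383738 to 390225), which spans 2 reference transcripts. Its level was 4418 FPKM in flower 1 and 4086 in flower 45 but 325 in flower 2, against 20.3, 16.8 and 11.9 in root and 253, 413 and 54.8 in leaf. Flower 2 thus lay within the leaf range, while all flower libraries lay above root. One contained reference was listed at 0 in all 9 libraries, and the other had 1.22 FPKM in flower 1 and under 0.0001 elsewhere. MSTRG.16058.1 (minus strand, positions 35884 to 38515, 1888 nt past its reference at the 5′ end) had 2435, 1226 and 1392 FPKM in flower, 479.5, 643 and 479 in root and 350.3, 367 and 193 in leaf. Flower lay above both other tissues without overlap, by 1.60 ± 0.38 over root and 2.46 ± 0.38 over leaf (SE, log2(FPKM + 1) scale; limma, adjusted p = 0.0074 and 0.00107).

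The leaf list had no transcript of its own at such levels. After MSTRG.36292.1, the highest leaf means belonged to MSTRG.29393.1, with 247, 88.7 and 174 FPKM in flower, 261, 882 and 809.8 in root and 283, 469 and 715 in leaf, and to MSTRG.36306.1. The second, 597 nt longer than its reference at the 5′ end, had 602, 329 and 459 FPKM in flower, 685, 666 and 602 in root and 377, 468 and 349 in leaf, and passed the test in no comparison.

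In each library, class k transcripts held between 2.42% and 3.36% of the summed FPKM. The share was 3.30%, 2.76% and 3.36% in flower, 3.34%, 3.23% and 3.27% in root and 2.66%, 2.61% and 2.42% in leaf. The means came to 3.14% ± 0.331 in flower, 3.28% ± 0.0596 in root and 2.56% ± 0.128 in leaf (SD, n = 3 each). Leaf lay below both other tissues without overlap. Root minus leaf was 0.718 percentage points and flower minus leaf 0.576, each with a two-sided exact permutation p of 0.1, the smallest that 3 libraries against 3 can give, and 0.2 after Benjamini-Hochberg adjustment over the 6 contrasts of shares computed. Flower minus root was -0.142 points (exact permutation p = 0.9, adjusted 0.9) and those libraries overlapped. The 3 most abundant class k transcripts of each library, not always the same ones, held 7.33% to 25.2% of the class there. Without the 3 class k transcripts of highest mean over all libraries, the shares came to 2.68% ± 0.0918 in flower, 2.69% ± 0.0818 in root and 2.42% ± 0.0890 in leaf. Leaf still did not overlap the others. Without flower 2 and leaf 41, the share of the whole class averaged 3.33% in flower and 2.63% in leaf. The number of class k transcripts at 1 FPKM or more had another order, with 1050 to 1068 in flower, 976 to 993 in root and 1051 to 1121 in leaf. At a length of 1000 nt, 1 FPKM stood for more fragments in each leaf library than in any flower or root library. Flower and root overlapped in this depth, at 14.1 to 17.9 fragments in flower and 14.0 to 17.8 in root, while their numbers of transcripts did not overlap. The part of depth in these numbers was not tested.

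**Figure D2:**
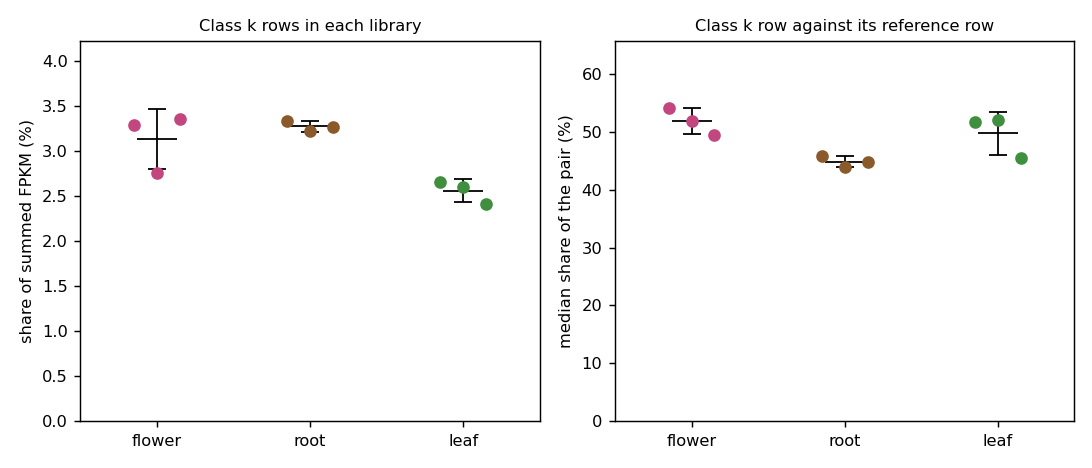
Left, share of the summed FPKM of each library held by class k transcripts (%), by tissue; right, median share of the class k transcript in the summed FPKM of the pair it forms with its reference transcript (%), over the 572 to 581 of 585 pairs with a summed level above 0 in the library. Points are libraries in the order 1, 2, 45 (flower), 13, 23, 33 (root) and 1, unnumbered, 41 (leaf), the long bar is the mean and the whiskers are 1 SD (n = 3); the left share is between 2.42% and 2.66% in leaf and at least 2.76% elsewhere, and the right share is between 43.9% and 45.8% in root.

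Between tissues, class k transcripts were called higher in flower more often than the assembly as a whole. A transcript was called when its limma adjusted p, over all 55806 tested transcripts, fell below 0.05 and the tissue means lay at least 1 apart in log2(FPKM + 1), a scale on which low transcripts appear to change less than they do. In flower minus root, 336 of the 1301 class k transcripts (25.8%) were called higher, against a background of 20.1% of all tested transcripts, and 245 (18.8%) lower, against 20.7%. In flower minus leaf, 292 (22.4%) were called higher, against 17.3%, and 163 (12.5%) lower, against 14.0%. In root minus leaf the counts lay close to the background, with 202 (15.5%) higher, against 17.5%, and 182 (14.0%) lower, against 13.4%. The median difference of the class was 0.14 in flower minus root, where that of all tested transcripts was 0.00, and 0.11 in flower minus leaf, where it was -0.02. In root minus leaf it was -0.03, where that of all was -0.01. No test of the class against the rest was made.

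The direction of the calls against leaf depended on the scaling. With each library brought to the same summed FPKM, the median of all tested transcripts moved to -0.28 in root minus leaf and -0.35 in flower minus leaf, and to -0.05 in flower minus root. Root minus leaf then had 150 higher and 265 lower class k transcripts (11.4% and 20.2%, where the background was 13.3% and 19.2%), and flower minus leaf had 208 higher and 283 lower (15.8% and 21.6%, where the background was 12.6% and 21.5%). The class medians were -0.31 and -0.28, which lay just below the median of the assembly in root minus leaf and above it in flower minus leaf. In flower minus root, 300 class k transcripts were higher and 255 lower (22.8% and 19.4%, where the background was 17.6% and 20.5%). Without flower 2 and leaf 41, an alternative added after the data were seen, flower minus root had 313 higher (26.9%, background 22.8%) and 266 lower (22.9%, background 25.5%), flower minus leaf 240 higher (20.6%, background 16.1%) and 137 lower (11.8%, background 14.1%), and root minus leaf 245 higher (21.1%, background 24.4%) and 237 lower (20.4%, background 19.5%).

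**Figure D3:**
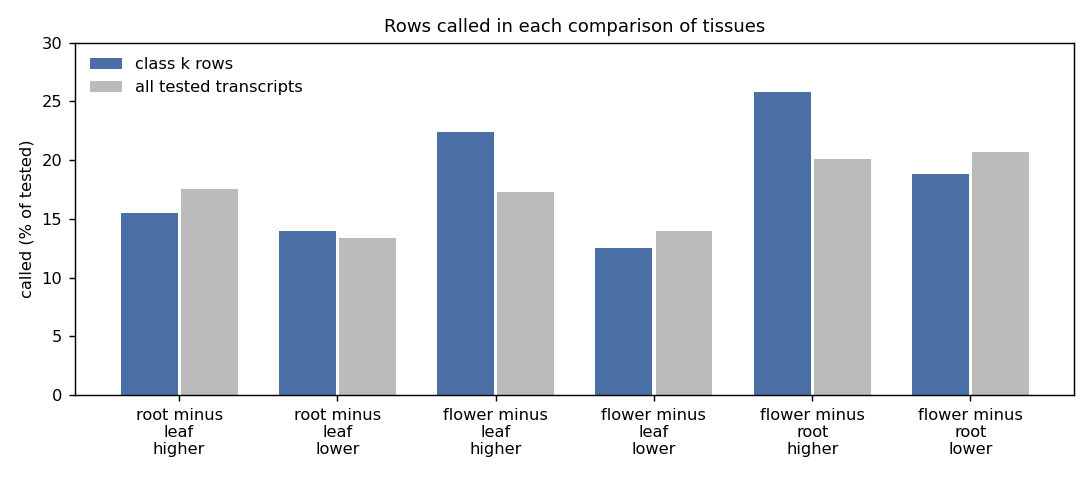
Percentage of tested class k transcripts (blue, of 1301) and of all tested transcripts (grey, of 55806) called higher or lower in each comparison of tissues. Class k lies above the background for higher in flower against leaf (22.4% against 17.3%) and against root (25.8% against 20.1%), and at or close to it elsewhere, as in root against leaf (15.5% against 17.5% higher).

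Large differences, of at least 3 on the log2 scale or 8-fold on FPKM + 1, had the same order of frequency in the class as in the whole assembly for higher calls, with flower minus root first. In that comparison 89 class k transcripts were higher by so much (6.84%, against 5.39% of all tested transcripts) and 40 lower (3.07%, against 4.04%). In flower minus leaf 70 were higher (5.38%, against 4.69%) and 19 lower (1.46%, against 1.84%), and in root minus leaf 33 were higher (2.54%, against 3.73%) and 31 lower (2.38%, against 2.73%). In no comparison was a call made for 497 (38.2%, against 41.9% of all tested transcripts), and 54 (4.15%, against 3.998%) were called in all 3. The highest tissue mean was that of flower in 541 of the tested class k transcripts (41.6%, against 34.7% of all), that of root in 418 (32.1%, against 35.4%) and that of leaf in 342 (26.3%, against 29.9%). At least 1 FPKM in every library of one tissue and less in every other library was found for 55 class k transcripts in flower (3.01% of the class, against 2.33% of the assembly), 33 in root (1.81%, against 2.28%) and 29 in leaf (1.59%, against 1.56%).

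Called higher than in both other tissues were 214 class k transcripts in flower (16.4%, against 12.5% of all tested transcripts), 125 in root (9.61%, against 12.4%) and 74 in leaf (5.69%, against 6.97%). With equal summed FPKM the flower set held 164 (12.5%, against 9.71% of all tested), the root set 106 (8.07%, against 10.3%) and the leaf set 113 (8.61%, against 10.7%). Without flower 1 the flower count was 116 (9.42%, against 7.01%). The root count was 67 without root 23 (5.39%, against 6.23%) and 80 without root 33 (6.41%, against 3628 of all 51802 tested). The leaf count was 44 without leaf 1 (3.54%, against 3.49%) and 43 without the unnumbered leaf library (3.44%, against 3.47%). The flower-enriched transcripts lay in 200 loci, had a median flower level of 20.2 FPKM and included 29 with a flower mean of at least 100 FPKM. The root-enriched ones lay in 119 loci, with a median root level of 14.7 FPKM and 19 at or above 100. The leaf-enriched ones lay in 71 loci, with a median leaf level of 7.76 FPKM. MSTRG.43459.1 alone reached a leaf mean of 100 FPKM.

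The end at which the reference was extended differed in proportion between the enriched sets. Of the 132 flower-enriched transcripts with a single reference, 57 (43.2%) extended the 5′ end only, 20 (15.2%) the 3′ end only and 55 (41.7%) both. Of 76 root-enriched ones, 22 (28.9%) extended the 5′ end only, 29 (38.2%) the 3′ end only and 25 (32.9%) both. Of 41 leaf-enriched ones, 14 (34.1%) extended the 5′ end only, 10 (24.4%) the 3′ end only and 17 (41.5%) both. Among all 807 tested transcripts with a single reference the shares were 35.7%, 22.3% and 42.0%. Extension at the 3′ end only was thus the most frequent form among root-enriched transcripts and the least frequent among flower-enriched ones. This was seen after the sets were made, and the difference was not tested. Several references were contained in 30.4% of the flower set, 28.8% of the root set and 31.1% of the leaf set, against 27.7% of all tested.

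The 2 class k transcripts with the largest differences in favour of root were the same in both comparisons with root. MSTRG.36822.8 (plus strand, positions 167994 to 170219) had 0.461, 0.401 and 0.354 FPKM in flower, 354, 614 and 384 in root and 0.548, 0.746 and 1.22 in leaf. Root minus leaf was 7.91 ± 0.29 and flower minus root -8.28 ± 0.29 (SE, log2(FPKM + 1) scale; limma, adjusted p = 1.34e-06 and 6.18e-07). The reference at its 3′ end, CSA012729.1, of 234 nt, moved the same way, with 1729.8, 2845 and 1816 FPKM in root and at most 2.42 in the other libraries. MSTRG.40356.1 (minus strand, positions 771 to 7351) had 0.122, 0.227 and 0.0481 FPKM in flower, 325, 122 and 301 in root and 0.0184, 0.0622 and 3.01e-07 in leaf. Root minus leaf was 7.81 ± 0.38 and flower minus root -7.67 ± 0.38 (SE; limma, adjusted p = 3.38e-06 and 2.13e-06). MSTRG.40356.1 reached 1 FPKM in root alone, so it entered the test through the tissue where it is high, and its p-values are a description. Here the contained reference, CSA022396.1, stayed at or under 0.104 FPKM in every library, so the locus was represented in root by the longer transcript, which adds 3908 nt at the 5′ end and 317 nt at the 3′ end.

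The leaf side was also led by the same pair in both comparisons with leaf. MSTRG.43459.1 (minus strand, positions 680153 to 685367) had 1.06e-05, 0.370 and 1.16 FPKM in flower and 0.166, 0 and 0 in root, against 193, 250.4 and 123 in leaf. Root minus leaf was -7.43 ± 0.37 and flower minus leaf -6.99 ± 0.37 (SE, log2(FPKM + 1) scale; limma, adjusted p = 3.6e-06 and 5.69e-06). It adds 431 nt at the 3′ end of CSA010617.1 and shares its 5′ base. That reference had 64.9 and 83.3 FPKM in leaf 1 and the unnumbered leaf library but 0.00744 in leaf 41, so the division between both transcripts differed within leaf. MSTRG.40495.3 (plus strand, positions 48247 to 59025) holds 3 reference transcripts and had 0.582, 2.89 and 3.44 FPKM in flower and 0.277, 0.0564 and 0.0349 in root, against 92.9, 125 and 69.4 in leaf. Root minus leaf was -6.40 ± 0.42 and flower minus leaf -4.97 ± 0.42 (SE; limma, adjusted p = 1.4e-05 and 4.65e-05). The first of the 3, CSA035317.1, was more abundant still in leaf, at 469.9, 614 and 343 FPKM, and the other 2 stayed at or under 0.351 FPKM in all libraries.

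On the flower side, MSTRG.45024.1 (minus strand, positions 36372 to 41773) spans 2 reference transcripts and had 425, 792 and 176 FPKM in flower, against 1.53, 0.551 and 1.58 in root and 0.0977, 2.46 and 3.98 in leaf. Flower minus leaf was 7.20 ± 0.66 and flower minus root 7.50 ± 0.66 (SE, log2(FPKM + 1) scale; limma, adjusted p = 6.73e-05 and 3.53e-05). Of the contained pair, CSA019497.1 was higher than it in flower, at 1073, 1852 and 391 FPKM, and CSA019498.1 was at or near 0 in all libraries. MSTRG.33631.1 (minus strand, positions 193611 to 201561), extended by 6189 nt at the 5′ end, had 165, 113 and 79.2 FPKM in flower, against 0.0788, 0.338 and 5.88e-06 in leaf. Flower minus leaf was 6.67 ± 0.43 (SE; limma, adjusted p = 1.55e-05). Its reference had 89.8 FPKM in flower 2 and under 0.001 in flower 1 and flower 45, another case in which libraries of one tissue were divided differently.

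MSTRG.22933.2 (minus strand, positions 143900 to 146375) had the largest difference of flower over root. Its FPKM was 347, 369 and 114 in flower, against 1.51e-05, 0 and 2.54e-08 in root, and 2.25, 3.20 and 0.660 in leaf. Flower minus root was 7.94 ± 0.50 (SE, log2(FPKM + 1) scale; limma, adjusted p = 6.55e-06). The reference it contains, CSA001946.1, was at or under 2.35 FPKM in all libraries. The rule by which these 7 were named asks that the libraries of both tissues do not overlap.

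**Figure D4:**
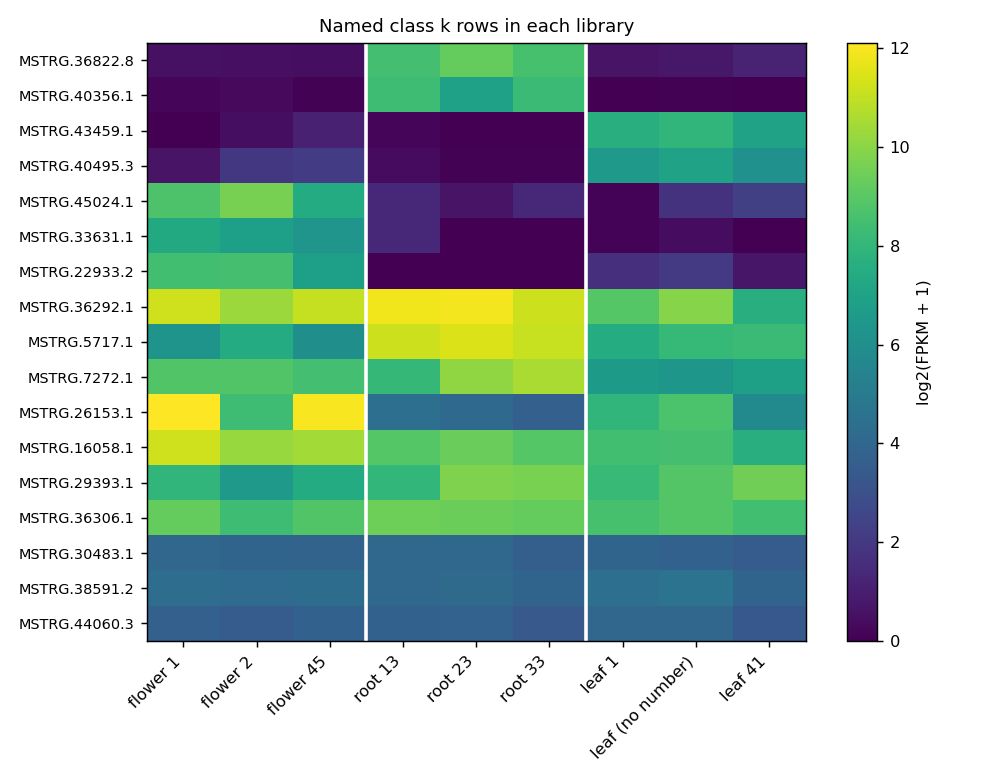
log2(FPKM + 1) of class k transcripts (lines) in each library (columns, grouped as flower, root and leaf); the upper 7 have the largest called differences, the next 7 the highest means in a tissue and the lowest 3 the smallest spread. The first 2 are bright in root, the next 2 in leaf and the next 3 in flower, MSTRG.26153.1 is lower in flower 2 (325 FPKM) than in the other flower libraries (4418 and 4086 FPKM), and the last 3 keep one shade throughout.

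Some class k transcripts held their level. Among those with a mean of at least 10 FPKM, MSTRG.30483.1 (minus strand, positions 311623 to 314139) had the smallest spread, an SD of 0.18 on the log2(FPKM + 1) scale over 9 libraries. It had 14.8, 14.1 and 13.6 FPKM in flower, 15.4, 15.7 and 11.6 in root and 13.7, 12.6 and 10.6 in leaf. It adds 1596 nt at the 5′ end of its reference, which stayed at or under 0.00158 FPKM in all libraries. MSTRG.38591.2, extended by 1351 nt at the 5′ end, followed with an SD of 0.22 and a range of 14.1 to 23.1 FPKM, and MSTRG.44060.3 with an SD of 0.24 and a range of 9.12 to 15.2 FPKM. These were chosen for their small spread, which is a description.

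The balance between a class k transcript and the reference it contains was measured in the 585 pairs in which both had at least 1 FPKM in at least 3 libraries and the locus has a single reference. The median share of the class k transcript in the pair, over the 572 to 581 pairs with a summed level above 0 in a library, was 54.2%, 51.9% and 49.5% in flower, 45.8%, 43.9% and 44.8% in root and 51.8%, 52.0% and 45.5% in leaf. The means came to 51.9% ± 2.32 in flower, 44.8% ± 0.976 in root and 49.8% ± 3.67 in leaf (SD, n = 3 each). Flower lay above root without overlap, by 7.05 percentage points (exact permutation p = 0.1, two-sided, adjusted 0.2). Root minus leaf was -4.92 points (exact permutation p = 0.2, adjusted 0.3) and flower minus leaf 2.13 points (exact permutation p = 0.6, adjusted 0.72), and both overlapped, with leaf 41 near the root libraries. Without flower 2 and leaf 41, the mean was 51.9% in both flower and leaf and 44.8% in root, and root then lay below both without overlap, which was not tested. In the 285 pairs with a summed level of at least 5 FPKM, the means came to 55.1% in flower, 48.6% in root and 52.6% in leaf.

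Pairs often changed places from library to library. Of the 560 class k pairs with a summed level of at least 1 FPKM in every library, the class k transcript was above its reference in all 9 libraries in 181 (32.3%), below it in all 9 in 156 (27.9%) and above in some only in 223 (39.8%). Among all 8577 such pairs of a non-reference transcript with the single reference of its locus, the mixed share was 25.4%, with 43.1% always above. Where the class k transcript and its reference were alone in the locus (243 pairs), 107 (44.0%) were always above, 41 (16.9%) always below and 95 (39.1%) mixed. The same count was not made for transcripts of other classes alone with their reference, so these shares have no background here.

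Few of these balances passed the test between tissues. The difference tested was that of log2((FPKM of the class k transcript + 1)/(FPKM of the reference + 1)), adjusted over all 6754 pairs of a non-reference transcript with a single reference. Flower minus root had 58 higher class k pairs (9.91%, against 10.3% of all pairs) and 33 lower (5.64%, against 10.4%). Root minus leaf had 24 higher (4.10%, against 6.10%) and 18 lower (3.08%, against 6.23%), and flower minus leaf 19 higher (3.25%, against 3.35%) and 16 lower (2.74%, against 4.09%). With all 9 libraries, higher calls were thus near the background in both comparisons with flower, and lower calls were rarer than it in all 3. The median change was 0.28 in flower minus root, where that of all pairs was 0.02, -0.20 in root minus leaf (all pairs -0.04) and 0.09 in flower minus leaf (all pairs -0.01). Without flower 2 and leaf 41 (522 class k pairs), the lower calls in root minus leaf were no longer rarer, at 56 (10.7%, against 589 of all 5594 pairs), beside 24 higher (4.60%, against 8.90%). Flower minus leaf then had 4 higher (0.766%, against 1.23%) and 6 lower (1.15%, against 112 of all 5594 pairs), and flower minus root 69 higher (13.2%, against 11.9%) and 27 lower (5.17%, against 11.4%). With single libraries left out, the called pairs numbered 42 to 107 in flower minus root, 15 to 58 in root minus leaf and 6 to 25 in flower minus leaf. The lowest came without root 23, leaf 1 and flower 1, in that order. Calls over all pairs fell there as well. Flower minus root then had 4.13% higher (all pairs 5.24%) and 3.41% lower (6.32%). Root minus leaf had 1.23% higher (2.71%) and 1.41% lower (2.61%), and flower minus leaf 0.730% higher (0.801%) and 0.365% lower (1.29%).

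MSTRG.17003.2 (plus strand, positions 58902 to 67341) and its reference CSA009106.1, which it extends by 1017 nt at the 5′ end and 657 nt at the 3′ end, took turns by tissue. Their locus holds 4 transcripts, and those outside the pair are not shown. The longer transcript had 4.39, 4.80 and 3.68 FPKM in root and at most 0.0117 in flower and leaf. The reference had 13.3, 29.4 and 8.80 FPKM in flower, under 0.0001 in root, and 4.84, 2.41 and 1.09 in leaf. The difference of the log2 ratio was 4.18 ± 0.49 in root minus leaf and -6.41 ± 0.49 in flower minus root (SE; limma, adjusted p = 0.00156 and 0.000185). The longer transcript reached 1 FPKM in root alone, so the pair entered the test through the tissue where that transcript is high. These p-values are therefore a description and no independent support.

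MSTRG.6378.1 (plus strand, positions 884993 to 900011), in a locus of 4 transcripts, differs from its reference, CSA010826.1, by 444 nt at the 5′ end and 39 nt at the 3′ end. It had 82.8, 79.9 and 37.6 FPKM in flower, 7.44e-07, 2.32e-08 and 3.92e-09 in root and 2.71, 2.33 and 0.358 in leaf, whereas the reference ranged between 0.000849 and 3.58 FPKM over all libraries. The ratio was higher in flower by 6.99 ± 0.69 against root and 5.75 ± 0.69 against leaf (SE; limma, adjusted p = 0.000482 and 0.00218). MSTRG.18074.2 (plus strand, positions 167943 to 170818, extended by 899 nt at the 5′ end), in a locus of 3 transcripts, had 149, 106 and 119 FPKM in flower, 15.7, 14.1 and 10.3 in root and 22.8, 25.8 and 15.7 in leaf. Its reference was seen mainly in root, at 9.47, 3.62 and 10.6 FPKM, and at most at 0.266 elsewhere. Flower minus root was 5.996 ± 0.478 on the log2 ratio (SE; limma, adjusted p = 0.000187). That reference reached 1 FPKM in root alone, so the pair entered the test through root, and its p-value is a description.

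In MSTRG.50321.1 (minus strand, positions 107988 to 117249; 8353 nt at the 5′ end) the direction was the opposite. The longer transcript had 0.0920, 0.0780 and 0.215 FPKM in flower, 4.103, 0.558 and 3.04 in root and 2.12, 1.92 and 0.930 in leaf, and the reference 22.5, 1.53 and 17.4 in flower, under 0.0001 in root and 1.96, 2.85 and 0.425 in leaf. Flower minus root was -4.86 ± 0.81 on the log2 ratio (SE; limma, adjusted p = 0.0044). Both transcripts were thus detected in leaf, the longer one prevailed in root and the reference in flower.

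The locus of CSA025872.1, a reference of 1687 nt, holds 5 transcripts. Of these, 2 are class k transcripts that end on the 3′ base of the reference and were both highest in leaf. MSTRG.13618.2 (minus strand, positions 132666 to 146142), 11790 nt longer at the 5′ end, had 1.08, 0.440 and 2.72 FPKM in flower, 0.000974, 0.203 and 0.00369 in root and 16.4, 30.4 and 6.31 in leaf. MSTRG.13618.3, 479 nt longer at the 5′ end, had 3.89, 2.08 and 3.79 in flower, 6.02, 8.69 and 6.18 in root and 49.6, 48.6 and 19.3 in leaf. The reference they share had 1.58, 0.000211 and 2.01 FPKM in flower, 1.69, 2.14 and 4.92 in root and 0.00511, 0.00176 and 0.628 in leaf. On the log2 ratio, MSTRG.13618.2 differed by -5.54 ± 0.69 in root minus leaf and by -3.58 ± 0.69 in flower minus leaf (SE; limma, adjusted p = 0.00198 and 0.0173). For MSTRG.13618.3, flower minus leaf was -3.90 ± 0.63 (SE; limma, adjusted p = 0.00778). Both flower results lost the call without flower 1, at adjusted p = 0.089 and 0.0508 in limma, and that of MSTRG.13618.2 also without flower 45 (0.0576), leaf 1 (0.0699) or the unnumbered leaf library (0.0605).

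The other pairs named by the same rule were less firm. For MSTRG.33327.10 (minus strand, positions 72818 to 84976), root minus leaf was 3.57 ± 0.60 (SE; limma, adjusted p = 0.00627), but its own level in root was under 0.0001 FPKM. The difference came from the reference, at 0.928, 0.568 and 0.782 FPKM in root, against 37.5, 27.4 and 54.9 in leaf. This locus holds 19 transcripts, 11 of them class k. MSTRG.9002.1 (plus strand, positions 299283 to 303182) had 9.86, 12.9 and 10.9 FPKM in root, against 5.83, 8.61 and 3.32 in leaf, while its reference had 21.3, 38.7 and 36.3 in root and at most 0.0772 in leaf. Root minus leaf of the ratio was -4.05 ± 1.13 (SE; limma, adjusted p = 0.0499), and the call was lost without any one of the root or leaf libraries or flower 45, with adjusted p between 0.0559 and 0.164. MSTRG.11695.5 (plus strand, positions 15257 to 17657) had 287, 22.3 and 123 FPKM in flower, against 2.18, 2.01 and 1.48 in leaf. Flower minus leaf of its ratio was 5.02 ± 1.27 (SE; limma, adjusted p = 0.0499), and the call was lost without any one library other than flower 45, with adjusted p between 0.0696 and 0.161.

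**Figure D5:**
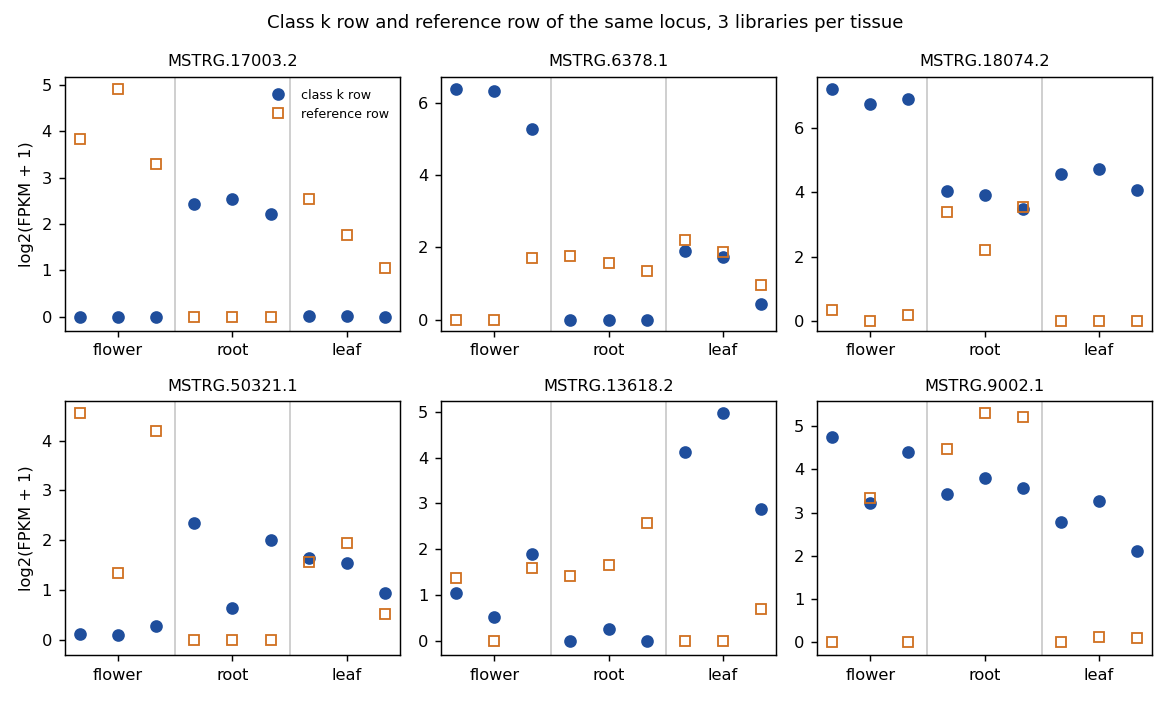
log2(FPKM + 1) of 6 class k transcripts (filled circles) and the reference transcript of the same locus (open squares) in each library, with 3 libraries per tissue in the order flower, root and leaf. In MSTRG.17003.2 the class k transcript is seen in root and the reference in flower and leaf, in MSTRG.50321.1 the reference is the higher in flower and the class k transcript in root, and in MSTRG.9002.1 the reference is high in root (21.3 to 38.7 FPKM).

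Where several class k transcripts of a locus were called, they mostly had one direction, but more often only 1 of them was called. Most loci (1194) hold 1 of them, 169 hold 2, 43 hold 3 and 31 hold 4 or more, up to 12. In the 162 loci with at least 2 tested class k transcripts (386 transcripts), 53 loci had 2 or more called in flower minus root, of which 51 had all in one direction. In flower minus leaf this was so in 31 of 32 loci and in root minus leaf in 19 of 20. A single class k transcript was called in 55 of the 162 loci in flower minus root, in 40 in flower minus leaf and in 53 in root minus leaf. These transcripts share sequence and are not independent. The same count was not made for loci with several transcripts of other classes, so a shared direction is not shown to be particular to class k.

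The exceptions, chosen after their values were seen, were MSTRG.17938, MSTRG.44060, MSTRG.15496 and MSTRG.31293. In MSTRG.17938 (minus strand), the transcript from 475317 to 487167 had 1.79, 2.79 and 1.42 FPKM in flower, against 10.4, 9.17 and 16.1 in leaf, a difference of -2.09 ± 0.31 (SE, log2(FPKM + 1) scale; limma, adjusted p = 0.000973). The shorter MSTRG.17938.2, which has the same 3′ end and starts at 484597, had 1.89, 3.01 and 1.36 FPKM in flower, against 5.65e-06, 0.107 and 0.105 in leaf, a difference of 1.495 ± 0.233 (SE; limma, adjusted p = 0.00118). The first was thus the main one in leaf, and both were at like levels in flower. MSTRG.17938.2 reached 1 FPKM in flower alone, so it entered the test through the tissue where it is high, and its p-value is a description. In MSTRG.44060 (plus strand, positions 158261 to 168809), root minus leaf was 1.85 ± 0.29 for MSTRG.44060.1 and -1.17 ± 0.28 for MSTRG.44060.5 (SE; limma, adjusted p = 0.00135 and 0.0106), while MSTRG.44060.3 of the same locus was among the 3 steadiest class k transcripts.

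In MSTRG.15496 (plus strand), MSTRG.15496.2 had 1.52, 1.154 and 1.74 FPKM in flower and under 0.0001 in root, while MSTRG.15496.4 had under 0.0001 in flower and 3.07, 2.54 and 2.17 in root. Their spans end on the same base and start 9 nt apart, at 85066 and 85075. Flower minus root was 1.2996 ± 0.4138 for MSTRG.15496.2 and -1.84 ± 0.21 for MSTRG.15496.4 (SE, log2(FPKM + 1) scale; limma, adjusted p = 0.03 and 0.000141). MSTRG.15496.4 reached 1 FPKM in root alone, so it entered the test through the tissue where it is high, and its p-value is a description. In MSTRG.31293 (minus strand), flower minus root was 2.57 ± 0.60 for MSTRG.31293.2 and -1.60 ± 0.40 for the shorter MSTRG.31293.3 (SE; limma, adjusted p = 0.00697 and 0.0106).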

How the data were processed

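The authors deposited 1 table of FPKM values with a row for each assembled transcript and a column for each library. Per the submitters' processing notes, HISAT2, StringTie and Cuffnorm were used. Of their versions, the strand setting, the annotation and the genome build, nothing is given in the sources used here. Each library carries the number of its title. The leaf column numbered 23 matches no leaf title and is called the unnumbered leaf library. Members and lists were chosen with earlier results of these data known.

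Rows with class code k were taken from the whole table, and transcripts with at least 1 FPKM in at least 3 libraries were tested. The test was limma 3.58.1 (R 4.3.3) with a variance trend on log2(FPKM + 1), 3 tissue means, 6 residual degrees of freedom and Benjamini-Hochberg adjustment. Pairs used the single reference row of a locus, since the table names no contained reference. Shares were compared with two-sided exact permutation tests (scipy 1.17.1). Named are the 2 called, non-overlapping differences of largest size in each direction, for levels and for pair ratios, the 3 highest means in each tissue, the 2 longest spans, the 2 farthest extensions and the 3 smallest spreads. Fragment depth was read from steps in the FPKM of rows with no strand, where 100% of low values lay within 0.05 of a whole number. The fit was tested on simulated data. Alternatives were other pseudocounts, filters and scaling, array weights and leaving out libraries. No column was left unused (0), and 0 identifiers matched the RefSeq gene table.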

Additional observations from a re-analysis of the deposited data

How the results depend on the processing

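The 12 named differences of level kept direction and call in all 198 alternative values that could be computed (largest limma adjusted p 0.000798). MSTRG.40356.1 reached 1 FPKM in root alone, so it left the test whenever a root library was left out, and those alternatives have no value for it. Of 158 alternative values of named pair ratios, 29 lost the call and none turned round (largest limma adjusted p 0.236), for MSTRG.11695.5, MSTRG.13618.2, MSTRG.13618.3, MSTRG.33327.10 and MSTRG.9002.1. A pair that did not meet the filter of an alternative, as MSTRG.17003.2 without any root library, has no value there. With a pseudocount of 5, which shrinks differences of low transcripts by construction, 198 class k transcripts were called in root minus leaf in place of 384. Flower minus leaf had 271 in place of 455 and flower minus root 358 in place of 581. Then 75 were enriched in root (5.76%, against 7.07% of all tested) and 37 in leaf (2.84%, against 3.57%). In flower minus leaf 58 pairs were called (4.96% higher and 4.96% lower, against 5.11% and 6.11% of all pairs). Calls over all tested transcripts fell as well. Root minus leaf had 9.45% of class k higher (all 9.86%) and 5.76% lower (all 6.18%). Flower minus leaf had 15.3% (all 10.9%) and 5.53% (all 5.99%), flower minus root 15.9% (all 11.6%) and 11.6% (all 10.6%). The main count of called pairs was 42 in root minus leaf, 35 in flower minus leaf and 91 in flower minus root. In the same order they numbered 15, 7 and 53 with a pseudocount of 0.1, 15, 5 and 37 with a minimum of 5 FPKM (fewer pairs tested, 315) and 14, 11 and 42 in loci of 1 reference and 1 other transcript (262 pairs). Calls over all pairs fell with the pseudocount of 0.1 as well, in root minus leaf to 207 higher and 209 lower from 412 and 421. In each of these settings the class k share of calls lay under that of all pairs, except for higher calls in flower minus root. Those were 8.89% (all pairs 8.56%) with the minimum of 5 FPKM and 11.1% (236 of all 2256 pairs) in those loci. With the pseudocount of 0.1 they too lay under it. Array weights gave 95 pairs in root minus leaf (6.50% higher and 9.74% lower, against 11.3% and 12.1% of all pairs). Leaving out flower 2 and leaf 41 gave 80 in root minus leaf and 10 in flower minus leaf, and the cause was not tested. The minimum of 5 FPKM left 41 leaf-enriched transcripts of 759 tested (against 1958 of all 24948), and equal sums gave 113 (8.61%, against 10.7%). With single libraries left out, called transcripts numbered 256 to 453 in root minus leaf, 320 to 462 in flower minus leaf and 451 to 605 in flower minus root. The lowest in root minus leaf, without root 23, had 124 higher and 132 lower of 1243, against 5336 and 5405 of all 51703. Without flower 1, flower minus leaf had 184 and 136 of 1231, against 5783 and 5861 of all 51659. Flower minus root then had 229 and 222, against 7317 and 10004. Enriched transcripts numbered 67 to 149 in root, 116 to 204 in flower and 43 to 75 in leaf, and called pairs 15 to 58, 6 to 25 and 42 to 107. Pairs in root minus leaf fell under the main count by over 1.5 times without root 13, root 23, root 33, leaf 1 or the unnumbered leaf library, those in flower minus root without root 13, root 23, root 33 or flower 1, and those in flower minus leaf without root 23 or any flower or leaf library. The class k share of summed FPKM was 3.59% in root and 2.73% in leaf without transcripts under 400 nt, and 2.68% in flower, 2.69% in root and 2.42% in leaf without the 3 most abundant class k transcripts. The pair share in pairs of at least 5 FPKM was 55.1% in flower and 48.6% in root. No paired analysis was possible because columns matched to a title have number 1 alone in common, between flower and leaf, while the title leaf 2 has no column of its number and the leaf column numbered 23 has no title. Low FPKM of overlapping transcripts are estimates that can fall far below 1 fragment, so a level under about 0.2 FPKM is not told from 0 at this depth.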
